A study of Sus scrofa with 6 samples.

Results

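The genes examined here are the core machinery of apoptosis in porcine granulosa cells, taken as a list of 44 gene symbols that covers the BCL2 family, the caspases, the death receptors and the inhibitors. A symbol counted as found when the gene table carries exactly that name, which held for 30 of the 44, out of 19442 genes in all. Of these 30, 25 reached at least 1 FPKM in at least 3 of the 6 libraries and were tested, among 11001 genes tested in total. FPKM are fragments mapped to a gene, scaled to its transcript length and to the mapped fragments of the library. Levels may thus be compared between genes as far as each row covers its transcript. The loci of BCL2, BOK and BCL2L2 span only 603, 1139 and 1245 bases, so their levels are less certain. The other 14 symbols were BCL2L1, BCL2L11, BBC3, BIK, HRK, BMF, CASP8, DIABLO, HTRA2, BIRC3, BIRC5, CFLAR, TRADD and TNFRSF10B. For 4 of them (BBC3, CASP8, DIABLO and CFLAR) a row was found through its gene identifier, and these are described apart. The remaining 10 were not analysed here.

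The granulosa cells came from ovaries of nulliparous gilts in the follicular phase, and each library was a pool of follicles of 1 class. Healthy antral (HA) follicles had a visible vascular sheath and clear fluid, while atretic antral (AA) follicles were opaque, poorly vascularized and at an advanced stage of degeneration. There were 3 HA and 3 AA libraries of total RNA depleted of ribosomal RNA. Mural cells were scraped off and mixed with the follicular fluid in both classes, and in AA follicles that fluid carried detached apoptotic granulosa cells, so AA libraries hold living and dying cells together. The study divided the follicles of each class into pools at random, so pools of 1 class may share animals. Nothing in the labels says whether they do. The p-values below rest on the spread between these pools, moderated by limma over all tested genes, and not on the spread between animals.

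Apoptosis is carried out by caspases, proteases that wait as inactive precursors and are switched on by cleavage, so the level of a caspase mRNA is not its activity. In the mitochondrial route, BH3-only proteins engage the antiapoptotic BCL2 proteins, BAX and BAK1 open the outer mitochondrial membrane, and released cytochrome c assembles APAF1 and caspase 9 into the apoptosome. In the extrinsic route, FAS, TNFRSF1A and the TRAIL receptors recruit adaptors that activate caspase 8 and caspase 10. Atresia, the fate of most ovarian follicles, proceeds largely through death of granulosa cells, and which of these steps differs at the mRNA level between healthy and advanced atretic follicles is the question the comparison addresses.

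The libraries held 10240684 to 15462448 fragments assigned to genes,, with AA library 2 the shallowest. AA library 2 also correlated least with the other libraries over the tested genes on the log2 scale (Pearson r from 0.857 to 0.932), while HA libraries 2 and 3 reached 0.964 with each other. Granulosa markers were abundant throughout, since the 7 of 12 listed markers in the table summed to 2362 to 5734 FPKM in AA and to 4750 to 10500 FPKM in HA libraries. Most of each sum was INHA and INHBA, and the markers did not move together. FSHR was higher in each AA library (88.3 to 92.0 FPKM against 28.4 to 51.0). CYP19A1 (128 to 307 against 744 to 1052) and NR5A2 (130 to 337 against 457 to 494) were lower in each. Of the 7, 1 had a positive log2 difference and 6 a negative one. CYP17A1, the steroidogenic enzyme that defines theca cells, stayed between 0 and 1.38 FPKM, but the 6 of 6 theca markers found summed to 48.1 to 63.8 FPKM in AA and 52.4 to 72.9 FPKM in HA libraries. Most of these sums came from INSL3, NR2F2 and PTCH1 (9.92 to 14.6 FPKM), which did not move together. INSL3 was at 11.3 to 23.6 FPKM in AA and at 23.4 to 46.7 FPKM in HA libraries. NR2F2 (14.6 to 41.3 FPKM) was higher in each AA than in each HA library, and CYP17A1, near 0, was lower. Markers of macrophages and other leukocytes were higher in AA. The 13 of 14 found summed to 128, 368 and 74.0 FPKM in AA libraries 1, 2 and 3 and to 34.6, 11.7 and 16.9 FPKM in HA libraries 1, 2 and 3. All 9 of them that were tested were higher in AA at an unadjusted limma p of at most 0.05, and 12 of the 13 had the higher mean in AA (CD163 was listed at 0 in each library). Endothelial markers (4 of 6 found) summed to 5.73 to 23.5 FPKM in AA and 1.46 to 4.78 in HA, smooth muscle and fibroblast markers (8 of 8) to 61.4 to 171 against 26.3 to 44.5, and lymphocyte markers (5 of 7) to 4.83 to 19.7 against 1.16 to 4.27. AA library 2 had the highest sum of all 4 of these lists. In bulk RNA of this kind, fewer cells of a type and less RNA per cell cannot be told apart.

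No apoptosis gene was called different between AA and HA follicles. At a limma adjusted p of at most 0.05, 0 of the 25 tested genes passed, against a background of 0.0% of all 11001 genes, and the lowest adjusted p of any gene was 0.0568. A fit with the library number as a block called 13 genes (0.118%), all higher in AA and none of them in this list. At an unadjusted limma p of at most 0.05, 2 of the 25 were higher in AA (TNFRSF1A and CASP10), against a background of 9.48% of all genes, and 0 were lower, against 6.14%, which together make 15.6%. CASP10 entered the test only through its AA libraries, since its HA values were all under 1 FPKM, so the count of 2 is a description. Across all genes these shares stand for 1043 higher and 675 lower. Of the 25, 12 had a positive and 13 a negative log2 difference (AA minus HA) with a median of −0.03, where 51.6% of all tested genes were positive and their median was 0.01. As a group, the apoptosis genes thus sat close to the background of the table in each of these counts. With 3 libraries against 3, an exact permutation test of a single gene cannot go below p = 0.1, so none is given.

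The levels spanned a wide range. Averaged over the 6 libraries, 5 of the 30 genes stood at 30 FPKM or more, 8 between 10 and 30, 11 between 1 and 10, and 6 below 1 FPKM. MCL1 led with 83.6 ± 11.7 FPKM (SD, n = 6) and stood at percentile 95.7 of all genes in the table, followed by CYCS with 71.9 ± 15.1, BIRC2 with 41.8 ± 9.11, XIAP with 39.4 ± 5.45 and BAX with 35.3 ± 8.41. The gap between MCL1 and CYCS was smaller than the SD of CYCS, and in the order BIRC2, XIAP and BAX each gene lay within 1 SD of the next. The abundant end of the list thus held a survival protein, the electron carrier that triggers the apoptosome, the caspase inhibitors and a pore former. BCL2 itself, FASLG, CASP1, BOK, DFFB and ENDOG averaged under 1 FPKM.

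**Figure D1:**
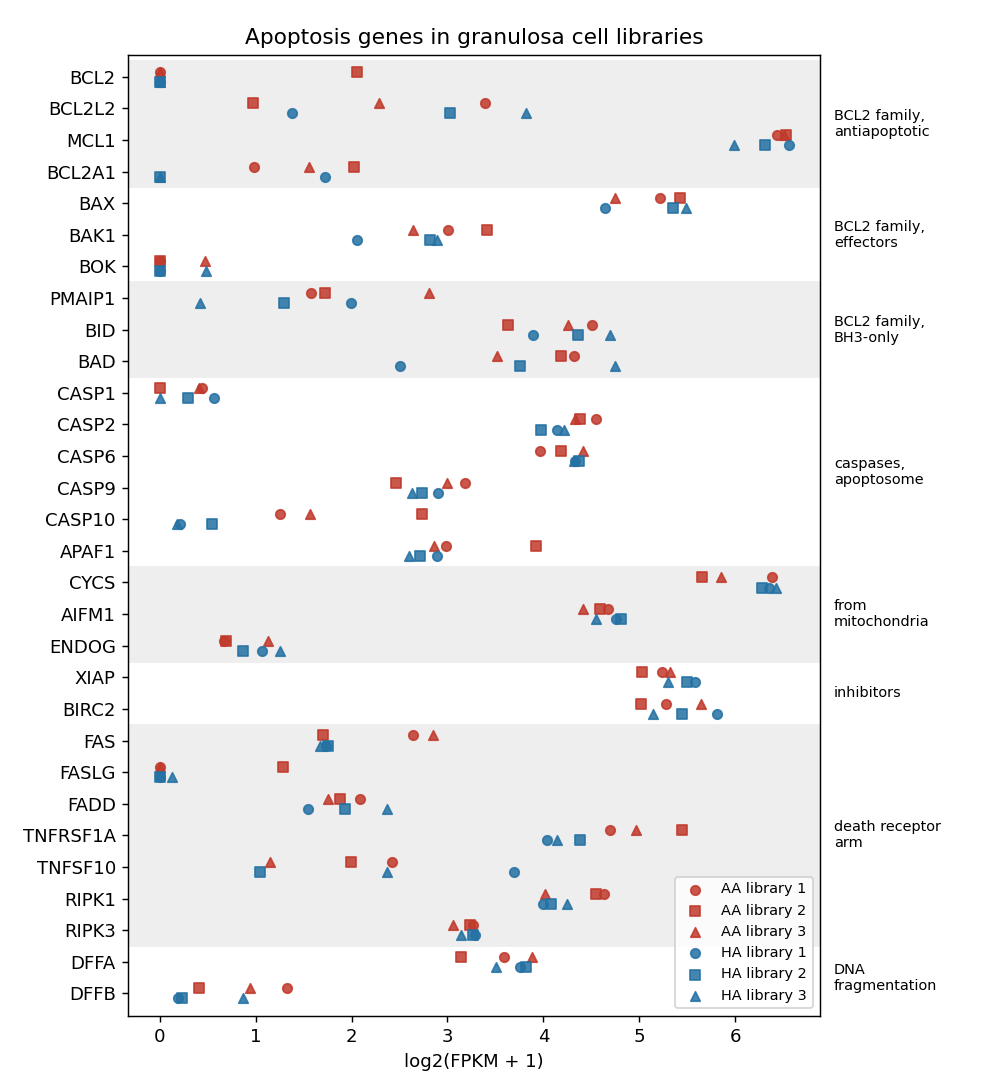
Level of the 30 genes found by name, as log2(FPKM + 1) on the x axis, with 1 point per library (red AA, blue HA, and circle, square and triangle for libraries 1, 2 and 3) and genes grouped by role. AA and HA points overlap for most genes, and the points of TNFRSF1A, CASP2 and CASP10 do not.

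Among the antiapoptotic BCL2 proteins, which hold BAX and BAK1 in check, MCL1 made up most of the mRNA of the 4 rows measured, which do not include BCL2L1. MCL1, a short-lived survival protein, was at 85.6, 91.5 and 90.3 FPKM in AA libraries 1, 2 and 3 and at 93.3, 78.7 and 62.4 FPKM in HA libraries 1, 2 and 3. The AA values lay inside the HA range, with a log2 difference of 0.21 ± 0.18 (SE; 95% interval −0.21 to 0.62, limma adjusted p = 0.625). MCL1 made up 91.9 ± 2.52% of the summed FPKM of BCL2, BCL2L2, MCL1 and BCL2A1 in AA and 90.1 ± 6.80% in HA (SD, n = 3), a ratio described without a test. The short loci of BCL2 and BCL2L2 make this share uncertain.

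BCL2A1, an NF-kB-induced survival gene best known from blood cells, was at 0.977, 3.06 and 1.95 FPKM in AA libraries 1, 2 and 3 and at 2.30, 0 and 0 in HA libraries 1, 2 and 3. HA library 1 thus exceeded both AA library 1 and AA library 3, and the log2 difference of 0.95 ± 0.53 (limma adjusted p = 0.444) did not exceed the spread. BCL2A1 was highest in AA library 2, which also had the highest leukocyte marker sum, and the part of those markers in its values was not tested. BCL2L2, which encodes the survival protein BCL-w, varied 13.5-fold among the 6 libraries, more than most of the genes, without following the follicle class. It was at 9.50, 0.968 and 3.88 FPKM in AA libraries 1, 2 and 3 and at 1.61, 7.16 and 13.1 in HA libraries 1, 2 and 3 (limma adjusted p = 0.771). Its 3 lowest libraries, AA library 2, AA library 3 and HA library 1, were also those with the fewest circRNAs (1270, 1620 and 1416 detected, against 2804 to 3465 in the other 3). BID and FADD, chosen after their values were seen, had the same 3 lowest libraries, and what these libraries share was not tested.

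BCL2 was listed at 0 in 5 libraries and at 3.17 FPKM in AA library 2, where the value rests on about 19 fragments. The locus given for it covers only 603 bases of chromosome 1 (175695537 to 175696139, Sscrofa10.2), so a ratio of BAX to BCL2 could not be formed, and with BCL2L1 not matched neither could a ratio of BAX to BCL2L1.

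Of the effectors of the mitochondrial pore, BAX and BAK1 were expressed in every library and BOK in few. BAX, which moves to the mitochondrion on activation, was at 36.2, 42.1 and 25.9 FPKM in AA libraries 1, 2 and 3 and at 24.1, 39.8 and 43.8 FPKM in HA libraries 1, 2 and 3. Both groups covered nearly the same range, and the log2 difference was −0.03 with a 95% interval from −0.65 to 0.60 (limma adjusted p = 0.971). These 6 libraries therefore do not resolve a BAX difference smaller than that interval in either direction. BAK1, its partner that resides on the membrane, was at 7.02, 9.68 and 5.24 FPKM in AA libraries 1, 2 and 3 and at 3.16, 6.04 and 6.43 FPKM in HA libraries 1, 2 and 3. AA library 3 lay below HA libraries 2 and 3, and the log2 difference was 0.43 ± 0.33 (limma adjusted p = 0.569).

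BAX exceeded BAK1 in each library, and the ratio of the 2 FPKM values did not overlap between groups. It was 5.16, 4.35 and 4.94 in AA libraries 1, 2 and 3 and 7.63, 6.59 and 6.81 in HA libraries 1, 2 and 3. This ratio was chosen after the values were seen and has no test. BOK, a more divergent effector, was listed at 0 in 4 libraries and was at 0.385 FPKM in AA library 3 and 0.396 in HA library 3.

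The BH3-only proteins are the sensors that start the mitochondrial route, and 3 of the 8 listed were found by name. BID, which caspase 8 cleaves to link the death receptors to mitochondria, had the highest mean of them over all libraries, although BAD exceeded it in AA library 2 and HA library 3. It was at 21.7, 11.4 and 18.1 FPKM in AA libraries 1, 2 and 3 and at 13.9, 19.5 and 24.9 FPKM in HA libraries 1, 2 and 3, and the groups overlapped (log2 difference −0.19 ± 0.30, limma adjusted p = 0.797). PMAIP1, which encodes the p53 target NOXA, an antagonist of MCL1, was at 1.98, 2.30 and 5.98 FPKM in AA and at 2.99, 1.45 and 0.339 FPKM in HA libraries 1, 2 and 3. Its log2 difference of 0.80 ± 0.49 was among the larger ones in the list, yet HA library 1 lay above AA libraries 1 and 2 (limma adjusted p = 0.490). BAD, whose activity is set by survival kinases, ranged more widely within HA (4.68 to 26.0 FPKM) than within AA (10.4 to 19.0 FPKM), with a limma adjusted p of 0.794.

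BBC3 encodes PUMA, another p53 target and a strong activator of BAX, and stands in the table without a name. The row given this name by its identifier was at 1.48, 2.73 and 2.18 FPKM in AA libraries 1, 2 and 3 and at 0.411, 0.967 and 0.846 FPKM in HA libraries 1, 2 and 3. All AA values exceeded all HA values, which also held for 11.9% of all tested genes, and the log2 difference was 0.84 ± 0.32 (95% interval 0.10 to 1.58). The unadjusted limma p of 0.0303 passed the threshold and the adjusted p of 0.268 did not. Like CASP10, this row passed the filter only through AA, with all HA values under 1 FPKM, so these p-values support nothing on their own. By qRT-PCR, the paper reports that PUMA mRNA was not altered in AA compared with HA follicles.

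The caspases and their scaffold held 2 of the 3 genes found by name whose AA and HA values did not overlap. In all, 3 of the 25 tested genes (TNFRSF1A, CASP2 and CASP10) were higher in each AA than in each HA library, a share of all tested genes that was 11.9%, and 0 were lower, against 9.1%. The first count was 5 without AA library 2 (14.5% of all genes), 6 without AA library 3 (22.3%) and 7 without HA library 1 (15.9%). The second was 1 without AA library 1 (13.2%) and 3 without AA library 3 (21.7%) or HA library 3 (16.0%). Leaving out libraries can only add genes to either count, here as in the whole table.

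CASP10, a death receptor caspase close to caspase 8 that mice lack, was at 1.38, 5.66 and 1.96 FPKM in AA libraries 1, 2 and 3 and at 0.158, 0.453 and 0.136 FPKM in HA libraries 1, 2 and 3. The AA values rest on 46, 151 and 69 fragments and the HA values on 5, 17 and 5. The means of 3.00 ± 2.32 and 0.249 ± 0.177 FPKM (SD, n = 3 each) differed 12.1-fold, and on the log2(FPKM + 1) scale, which understates differences of low genes, the difference was 1.54 ± 0.43 (95% interval 0.55 to 2.53). The unadjusted limma p was 0.00709 and the adjusted p 0.146. CASP10 passed the filter on low values only through its 3 AA libraries, so a tested CASP10 had to be higher in AA, and its p supports nothing on its own. CASP10 and CFLAR are given the same locus by the authors (chromosome 15, 116106029 to 116207636, Sscrofa10.2), so how reads were divided between them is uncertain. CASP10 was highest in AA library 2 and lowest in the HA libraries, as was the leukocyte marker sum, and the part of those markers was not tested. Without any 1 of the AA libraries, too few libraries reached 1 FPKM for CASP10 to be tested.

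CASP2, an initiator caspase linked to DNA damage and to the death of oocytes, was at 22.5, 19.9 and 19.1 FPKM in AA libraries 1, 2 and 3 and at 16.6, 14.7 and 17.6 FPKM in HA libraries 1, 2 and 3. Averaged over all libraries it was level with CASP6 (18.4 and 18.3 FPKM), which was the higher of both in each HA library and in AA library 3. The groups did not overlap, but AA library 3 and HA library 3 lay close together, and the log2 difference of 0.31 ± 0.18 (95% interval −0.10 to 0.73) had a limma adjusted p of 0.454. Unlike CASP10, CASP2 was not highest in AA library 2.

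The apoptosome genes overlapped between groups. APAF1, the scaffold, was at 6.89, 14.2 and 6.28 FPKM in AA and at 6.42, 5.55 and 5.07 FPKM in HA libraries 1, 2 and 3. AA library 2 stood apart from the other 5 libraries and the log2 difference of 0.52 ± 0.32 (limma adjusted p = 0.487) came to 0.19 without it. CASP9, which APAF1 activates, was at 8.11, 4.50 and 6.95 FPKM in AA and at 6.47, 5.66 and 5.17 FPKM in HA libraries 1, 2 and 3, so in AA library 2 it was at its lowest where APAF1 was at its highest.

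CASP6, an executioner that cleaves lamins, was nearly flat, at 14.6 to 20.3 FPKM in AA and 18.9 to 19.7 FPKM in HA (limma adjusted p = 0.741). CASP1, the inflammatory caspase that processes interleukin-1 beta, did not exceed 0.474 FPKM in any library. The row matched to CASP8, the main initiator at death receptors, was at 3.18, 5.35 and 3.21 FPKM in AA and at 2.93, 2.39 and 2.96 FPKM in HA libraries 1, 2 and 3. Its values did not overlap either, by a margin smaller than the spread within AA (log2 difference 0.36 ± 0.29, limma adjusted p = 0.591). The summed FPKM of CASP2, CASP9 and CASP10, formed after the values were seen and not tested, came to 32.0, 30.1 and 28.0 in AA and to 23.3, 20.8 and 22.9 in HA libraries 1, 2 and 3.

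**Figure D2:**
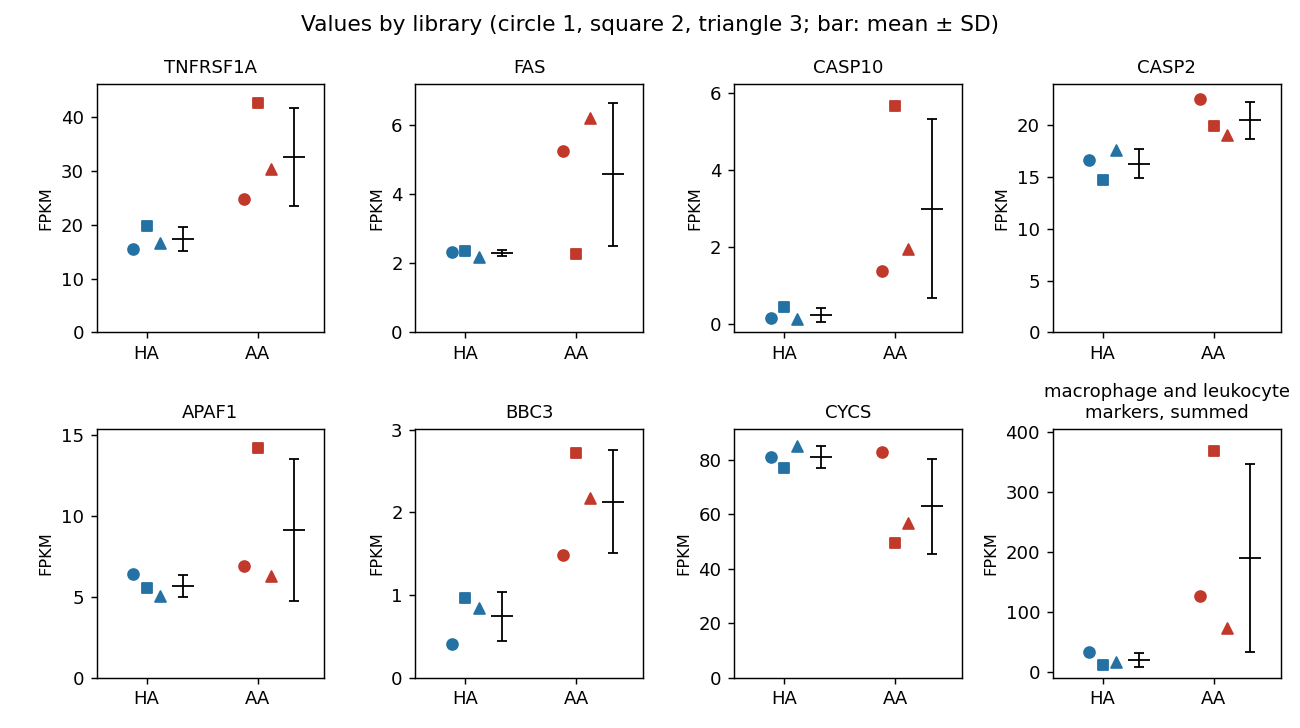
FPKM by library for TNFRSF1A, FAS, CASP10, CASP2, APAF1, BBC3 and CYCS, and the summed FPKM of the macrophage and leukocyte markers, each on its own axis, with HA in blue and AA in red (circle, square and triangle for libraries 1, 2 and 3) and the mean ± SD of 3 libraries as a bar. AA library 2, the red square, is the highest library for TNFRSF1A, CASP10, APAF1, BBC3 and the marker sum, and lies with the HA libraries for FAS.

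Of the proteins that leave the mitochondrion, the 3 genes found by name had negative log2 differences and the DIABLO row a positive one, and none passed the test. CYCS, cytochrome c, was at 82.6, 49.2 and 56.7 FPKM in AA libraries 1, 2 and 3 and at 80.8, 76.9 and 84.9 FPKM in HA libraries 1, 2 and 3. AA libraries 2 and 3 lay below the HA range and AA library 1 within it, for a log2 difference of −0.39 ± 0.21 (95% interval −0.87 to 0.09, limma adjusted p = 0.416). AIFM1, a flavoprotein of the respiratory chain that can carry death signals to the nucleus, was at 20.3 to 24.5 FPKM in AA and 22.4 to 27.1 FPKM in HA (adjusted p = 0.723 by limma). ENDOG, a mitochondrial nuclease, stayed between 0.589 and 1.39 FPKM in all 6 libraries. The row matched to DIABLO, which displaces caspase inhibitors, was at 27.9, 12.6 and 21.1 FPKM in AA and at 13.7, 12.3 and 23.9 FPKM in HA libraries 1, 2 and 3, with overlap (log2 difference 0.28 ± 0.34, limma adjusted p = 0.732).

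The inhibitors of apoptosis were among the most abundant genes of the list and did not separate the groups. XIAP, which binds and blocks caspases directly, was at 36.6, 31.5 and 39.1 FPKM in AA libraries 1, 2 and 3 and at 46.8, 44.2 and 38.3 FPKM in HA libraries 1, 2 and 3. Only AA library 3 and HA library 3 crossed, by less than 1 FPKM, and the log2 difference was −0.26 ± 0.17 (limma adjusted p = 0.501). BIRC2, a ubiquitin ligase of the TNF receptor complex also called cIAP1, was at 37.8, 31.4 and 49.0 FPKM in AA and at 55.3, 42.7 and 34.3 FPKM in HA libraries 1, 2 and 3 (log2 difference −0.16 ± 0.23, limma adjusted p = 0.787). The identifier of that row is assigned to BIRC3, the closest relative of BIRC2, in the identifier list used here, so which of both it measures is uncertain. A further row described as an inhibitor of apoptosis (PIAP) was at 8.50 to 16.7 FPKM in AA and 10.7 to 16.6 FPKM in HA. The row of CFLAR, the caspase 8 decoy known as c-FLIP, was at 18.3, 21.7 and 22.9 FPKM in AA and at 20.4, 21.7 and 18.5 FPKM in HA libraries 1, 2 and 3. CFLAR was thus far more abundant than the CASP8 row in every library, with a log2 difference between groups of 0.05 ± 0.18 (limma adjusted p = 0.923).

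In the death receptor arm, TNFRSF1A had higher values in AA than in HA libraries without overlap. TNFRSF1A, the main receptor of tumor necrosis factor, lies on chromosome 5 (66780726 to 66793255, Sscrofa10.2) and was at 24.9, 42.7 and 30.4 FPKM in AA libraries 1, 2 and 3 and at 15.5, 19.9 and 16.7 FPKM in HA libraries 1, 2 and 3. These values rest on 447 to 1042 fragments. The means were 32.7 ± 9.13 and 17.3 ± 2.29 FPKM (SD, n = 3 each), and the log2 difference was 0.85 ± 0.23 (95% interval 0.32 to 1.38). The unadjusted limma p of 0.00605 was the smallest in the list, and the adjusted p of 0.142 did not pass. AA library 2, with the highest leukocyte, endothelial and stromal marker sums, was again the highest, and the part of those cells in the difference was not tested. Without AA library 2 the log2 difference was 0.64 (limma adjusted p = 0.401).

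FAS, the receptor of FAS ligand, behaved otherwise. It was at 5.25, 2.26 and 6.20 FPKM in AA libraries 1, 2 and 3 and at 2.32, 2.37 and 2.18 FPKM in HA libraries 1, 2 and 3. AA libraries 1 and 3 stood above all HA libraries, whereas AA library 2 lay within the narrow HA range, and the log2 difference was 0.68 ± 0.35 (95% interval −0.12 to 1.48, limma adjusted p = 0.397). Without AA library 2 it was 1.03 (limma adjusted p = 0.298). The library that was highest in TNFRSF1A was therefore the lowest AA library in FAS. FASLG, its ligand on cytotoxic cells, was listed at 0 in 4 libraries and was at 1.44 FPKM in AA library 2, from about 11 fragments, and at 0.0955 FPKM in HA library 3.

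TNFSF10, which encodes the ligand TRAIL, had its highest FPKM in HA library 1. It was at 4.34, 2.97 and 1.21 FPKM in AA and at 11.9, 1.07 and 4.16 FPKM in HA libraries 1, 2 and 3 (log2 difference −0.52 ± 0.64, limma adjusted p = 0.736). These TNFSF10 values rest on 215, 117 and 63 fragments in AA and on 267, 59 and 210 in HA libraries 1, 2 and 3. HA library 1 thus exceeded AA library 1 far less in fragments than in FPKM, and the reason was not tested. FADD, the adaptor of FAS, was at 2.37 to 3.25 FPKM in AA and 1.92 to 4.17 FPKM in HA. RIPK1, the kinase that directs TNF receptor signals to survival or death, was at 23.7, 22.5 and 15.2 FPKM in AA and at 15.0, 15.9 and 18.0 FPKM in HA libraries 1, 2 and 3 (limma adjusted p = 0.568). RIPK3, the kinase of necroptosis, was the steadiest gene of the list, at 7.34 to 8.62 FPKM in AA and 7.83 to 8.78 FPKM in HA, with a 1.20-fold range over the 6 libraries.

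The nuclease that cuts DNA between nucleosomes is held inactive by DFFA until an executioner caspase cleaves it. DFFA was at 11.1, 7.82 and 13.8 FPKM in AA and at 12.5, 13.1 and 10.4 FPKM in HA libraries 1, 2 and 3, with overlap and a log2 difference of −0.16 ± 0.25 (limma adjusted p = 0.801). DFFB, the nuclease itself, was at 0.325 to 1.51 FPKM in AA and 0.137 to 0.827 FPKM in HA and fell under the level needed for the test.

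**Figure D3:**
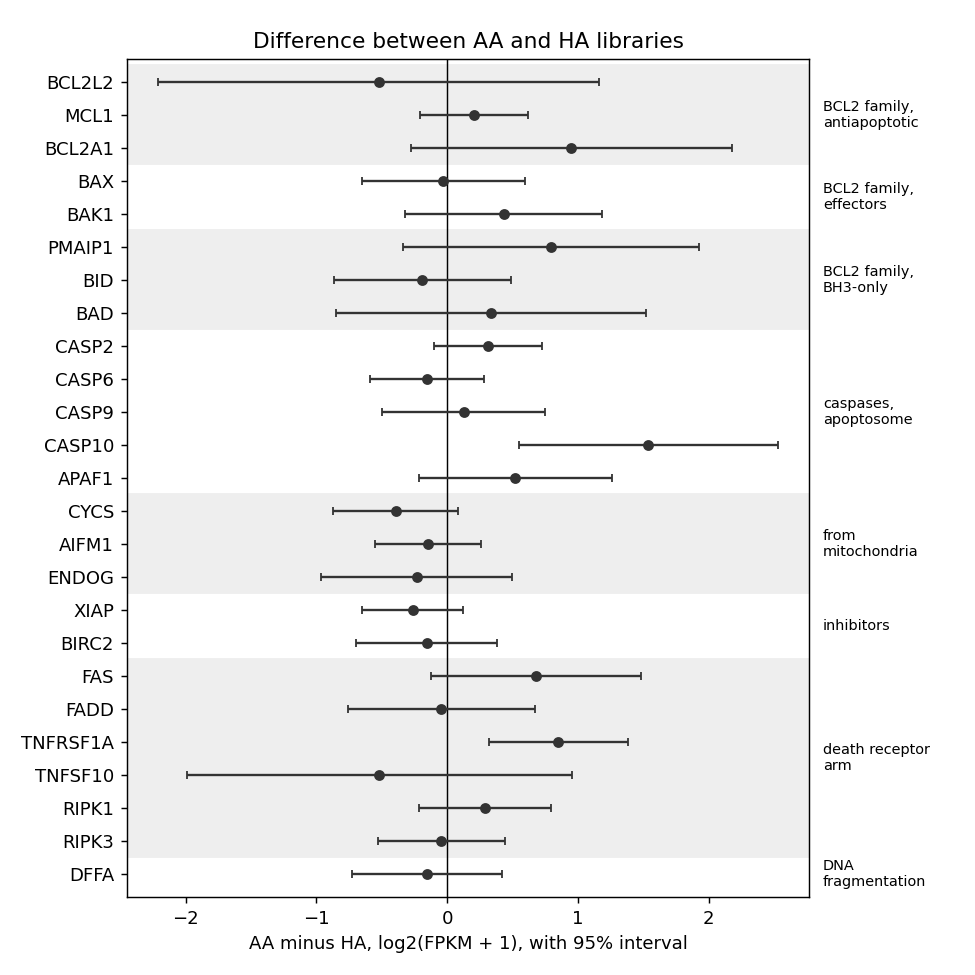
Difference between AA and HA means on the log2(FPKM + 1) scale (x axis) with its 95% interval from limma, for the 25 tested genes grouped by role. The intervals of TNFRSF1A (0.32 to 1.38) and CASP10 (0.55 to 2.53) lie above 0, and those of the other 23 genes include it.

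The extreme values were spread over libraries of both classes. HA library 3 was the highest library for 7 of the 25 genes and AA library 2 for 5, while AA library 2 was the lowest for 7 and HA library 1 for 6. Over all tested genes AA library 2 was the lowest in 27.3% and HA library 1 in 24.4%, shares close to those in the list, while HA library 3 was the highest in 14.8%. Within HA, the gap between libraries 1 and 3 was wide for BAD, BCL2L2 and BAX, which were lowest in library 1 and highest in library 3. Such gaps between pools of 1 class widen the intervals above. Limma also draws each gene's spread towards that of genes at a similar level, so the gaps alone do not set the width.

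**Figure D4:**
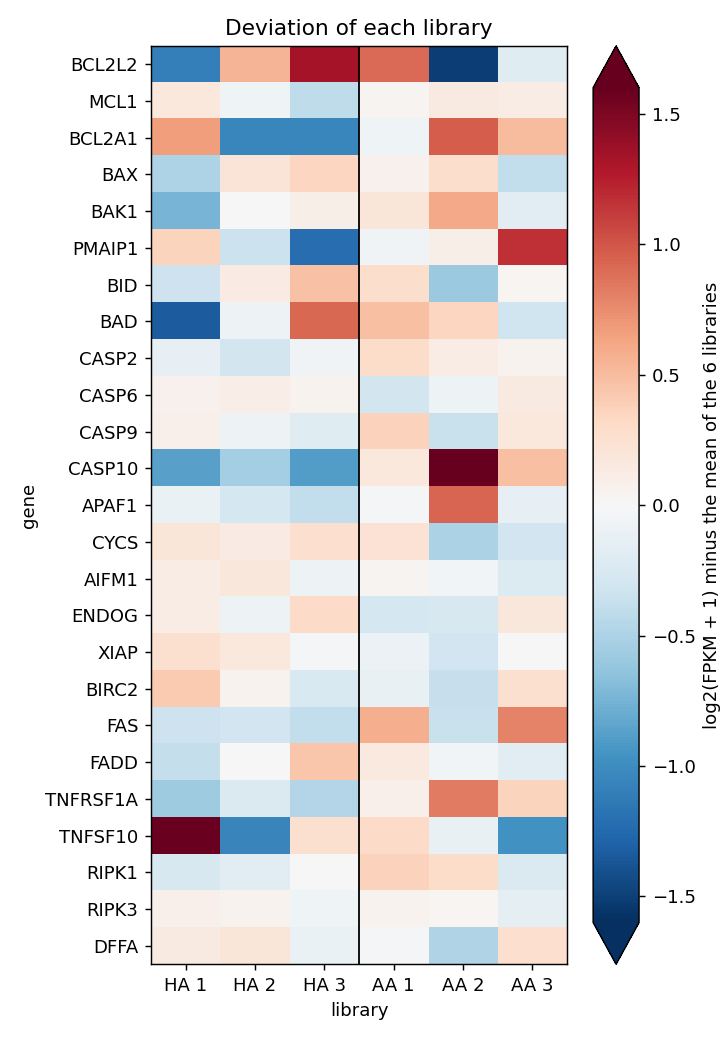
Deviation of each library from the mean of all 6 libraries on the log2(FPKM + 1) scale (colour, red above and blue below, saturated at the ends of the scale), for the 25 tested genes in rows and the libraries in columns, HA left and AA right of the line. AA library 2 departs strongly in opposite directions for CASP10 (1.66) and BCL2L2 (−1.50), and HA library 1 for TNFSF10 (1.58) and BAD (−1.33).

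The rest of the pathway was read from a list of 121 further symbols, of which 85 genes had a row and 68 rows were tested. None was called, 10 were higher and 4 lower in AA at an unadjusted limma p of at most 0.05, 9 were higher in each AA than in each HA library and 7 lower, and the median log2 difference was 0.08. Those counts too lay near the background of all genes (9.48% and 6.14% by p, 11.9% and 9.1% by order). The 4 genes with the smallest p were FAIM, CTSB, DAPK1 and TNFRSF12A.

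FAIM, an inhibitor of FAS-induced death, was the only one of these 4 with lower values in AA. It was at 23.4, 13.6 and 21.0 FPKM in AA libraries 1, 2 and 3 and at 34.1, 55.8 and 48.4 FPKM in HA libraries 1, 2 and 3 (log2 difference −1.22, limma adjusted p = 0.0851). The groups did not overlap, though the adjusted p missed the threshold. CTSB, the lysosomal protease cathepsin B, was at 703, 1060 and 596 FPKM in AA and at 410, 349 and 321 FPKM in HA libraries 1, 2 and 3 (log2 difference 1.09, limma adjusted p = 0.0983). Macrophages are rich in cathepsin B, AA library 2 was the highest here as in the leukocyte markers, and their part was not tested.

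DAPK1, a death-associated kinase bound to the cytoskeleton, was at 29.8, 52.7 and 34.0 FPKM in AA and at 19.3, 20.5 and 13.5 FPKM in HA libraries 1, 2 and 3 (log2 difference 1.07, limma adjusted p = 0.116). TNFRSF12A, the receptor of TWEAK, was at 6.29, 8.68 and 4.89 FPKM in AA and at 2.96, 1.83 and 0.906 FPKM in HA libraries 1, 2 and 3 (log2 difference 1.43, limma adjusted p = 0.118). For both genes all AA values exceeded all HA values, again with AA library 2 on top.

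By branch, the adaptors and the NF-kB arm had 17 rows tested, of which 14 had a positive log2 difference. This branch is a mixed list that is not specific to TNFRSF1A, and MAPK8 has more than 1 row in it. There, 3 were higher in AA at an unadjusted limma p of at most 0.05 (MAP3K14, IKBKB and NFKBIA), 0 were lower, and 0 passed adjustment. Over all tested genes 51.6% were positive and 9.48% were higher by p. The mitochondrial step went the other way, with 3 of 9 positive and 6 negative, and 0 of its genes passed either threshold. Other branches were more even. The other inhibitors had 4 positive and 4 negative, the substrates and nucleases 6 and 4, and a mixed remainder 8 and 6. Necroptosis and pyroptosis had 3 and 2, and the other BCL2 family 2 and 1. The granule proteins of cytotoxic lymphocytes (GZMA, GZMB and PRF1) were under 1 FPKM in every library. The contrast between the adaptor and mitochondrial branches was not set in advance, and the granule genes were picked for naming after their values were seen.

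The same libraries were also read for circular RNAs. Of 9362 circRNAs, 9 were assigned by the authors to 6 of the 44 genes (BID, BIRC2, CASP10, CASP8, CFLAR and RIPK1). Some of these host names do not match the gene rows above. The CASP10 circRNA is antisense and lies outside the CASP10 locus (chromosome 15, 116425424 to 116441903). The CASP8 circRNAs end before the start of the CASP8 row (116275040), and the CFLAR circRNA is antisense. Each was seen in a single library, with 2 to 24 junction reads, as were 77.2% of all circRNAs. BIRC2 gave rise to 3 of them, all exonic, with 24 reads in HA library 1, 12 in HA library 2 and 8 in AA library 3. Together the 9 circRNAs had 45 reads in AA and 45 in HA libraries, and with each confined to 1 library no comparison was made.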

How the data were processed

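Gene expression was measured in 3 AA and 3 HA libraries, grouped by their titles. Reads were aligned to Sscrofa10.2 (susScr3 in the submitters' processing notes), and the deposited gene table gives FPKM that the authors computed with TopHat and Cufflinks (tool versions: not given in the sources used here). The authors also deposited values named counts, a scaled signal and not raw reads. Of these, 99.47% to 99.72% were whole multiples of 1 step per library (tolerance 0.05). Dividing by the step gave the fragments per gene and library, an inferred unit. The fragments were used for depth and to show how many lie behind the values of some genes. They entered no test. The circRNA table holds the authors' raw junction read counts, described without a test. The lncRNA table was not used, and 0 columns of values could not be assigned. Because pools were scraped together with follicular fluid, and FPKM are relative to each library's total, a change in cell mixture moves every value.

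FPKM were tested as log2(FPKM + 1) with limma 3.58.1 (trend, empirical Bayes, two-sided) in R 4.3.3. Genes needed at least 1 FPKM in at least 3 libraries, p-values were adjusted by the Benjamini-Hochberg method over all 11001 genes tested, and a call needed an adjusted p of at most 0.05. The procedure was run on simulated data with independent noise and no cell mixture or library effect, so that run does not show how many real differences it recovers here. The alternatives were a block for the library number, a pseudocount of 0.1, no filter, a filter on all 6 libraries, median-ratio scaling, quantile normalization, limma without the trend, a fold change of at least 2, leaving out each library, and leaving out AA library 1 with HA library 1. The members, lists and rules were chosen with earlier results of these data known. Every gene found by name was named, with full values for the most abundant gene of each role and the one with the largest log2 difference. Of the further pathway genes, the 4 with the smallest p were named.

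By the labels, each AA library carries a date in July 2017 (days 7, 8 and 10) that the HA library with its number also carries. What the date marks, and whether it is a slaughter day, is not said. Deviations from the group means of same-numbered libraries correlated at −0.29, 0.00 and −0.40, so libraries with a shared date did not deviate together, and the block stayed an alternative. Other AA and HA pairs reached 0.40. No 2 libraries had identical values. Gene identifiers without a name were looked up in a reference list, which named 1528 of 6354 such rows. That list gives other symbols to the BAX and TNFSF10 rows, for which the GeneIDs in the table were followed.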

Additional observations from a re-analysis of the deposited data

How the results depend on the processing

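None of the 25 apoptosis genes and none of the further pathway genes was called under any alternative, and the lowest limma adjusted p of a member anywhere was 0.122. The count over all genes did move. With the replicate block 13 genes were higher in AA, with median-ratio scaling 9 were higher and 2 lower, without a filter 1 was lower, and without AA library 1 and HA library 1 together 4 were higher and 5 lower. Leaving out 1 library at a time gave 0 to 75 higher and 0 to 22 lower calls, the most without AA library 3. The cause was not tested. Of the 25, 15 kept their direction in every alternative that tested them and 10 did not. The alternatives tested between 20 (filter on all 6 libraries) and 30 (no filter) of the genes found by name. Among those tested, 1 to 3 were higher and 0 to 2 lower in AA at an unadjusted limma p of at most 0.05. Over the fits that left out AA or HA libraries singly, or AA library 1 with HA library 1, the log2 difference ranged from −1.79 to 0.10 for BCL2L2, −0.33 to 0.16 for BAX, −0.59 to 0.062 for BID, −0.40 to 0.88 for BAD, −0.029 to 0.34 for CASP9, −0.32 to 0.034 for BIRC2, −0.34 to 0.17 for FADD, −1.18 to 0.14 for TNFSF10, −0.092 to 0.017 for RIPK3 and −0.33 to 0.043 for DFFA. For the rows found by identifier or description it ranged from −0.071 to 0.58 for DIABLO, −0.015 to 0.15 for CFLAR and −0.23 to 0.36 for PIAP. The pools of 1 class differed most in the FPKM of BCL2L2 and TNFSF10, whose intervals are the widest. The only BCL2 value above 0 rested on about 19 fragments, and the FASLG value in AA library 2 on about 11.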
